A study of Homo sapiens with 5 samples.

Results

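Tetraspanins are small membrane proteins that gather integrins, receptors and proteases into patches of the cell surface and of endosomes. The genes described here are CD9 and 9 other tetraspanins (CD63, CD81, CD82, CD151, TSPAN1, TSPAN3, TSPAN4, TSPAN14 and TSPAN15), taken by name from a list that asks whether the higher level of CD9 after AKAP12 knockdown is shared by its family. They are 10 of the 33 human tetraspanin genes in the deposited counts, which hold 26485 genes, and all 10 had enough reads to pass the low-count filter. The list was chosen by gene name but with the fold changes of this same comparison, that of CD9 above all, already known, so the levels and fold changes of the 10 genes are a description and carry no test. Tests are given for the tetraspanins and partner genes outside the list.

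The cells were SW480, an established human colorectal cancer line, sequenced from the 3' ends of their transcripts. All groups carried dCas9-KRAB, a dead Cas9 joined to a repressor, and differed in the guide RNA they were given. There were 3 libraries of AKAP12 knockdown (sgAKAP12) and 2 of control (sgControls), all from RNA taken 48 hours after the cells were plated. The sample names call the same groups shAKAP12 and shControl, which is another silencing method, and neither the number of guides nor whether the replicates were separate cultures is given in the sources used here. P-values therefore measure the spread between these libraries, which may be technical.

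The family is named for its 4 membrane spans, with a small and a large outer loop, the large one held by disulfide bonds. CD9, CD81 and CD151 act mostly at the plasma membrane, where they bind integrins and immunoglobulin-type partners and affect adhesion, cell fusion and migration. CD63 cycles through late endosomes and lysosomes, and CD9, CD63 and CD81 are the usual markers of extracellular vesicles. CD82 is known as a suppressor of metastasis, and in colorectal tissue CD9 has also been studied for its link to spread.

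Promoter sequences were matched by symbol for 7 of the 10 genes in a RefSeq table (GRCh38.p14) that gives 250 bases before and 50 after each start site. The 250 bases before the start are shown for CD9 and CD63, which were higher in every knockdown library, and for CD82 and TSPAN4, which were lower in every one. Each is written 5' to 3' on the strand of the gene, and capitals mark the motifs searched for. They are chr12:6199696-6199945 on the plus strand for CD9, chr12:55729010-55729259 on the minus strand for CD63, chr11:44565413-44565662 on the plus strand for CD82, and chr11:842602-842851 on the plus strand for TSPAN4.
CD9: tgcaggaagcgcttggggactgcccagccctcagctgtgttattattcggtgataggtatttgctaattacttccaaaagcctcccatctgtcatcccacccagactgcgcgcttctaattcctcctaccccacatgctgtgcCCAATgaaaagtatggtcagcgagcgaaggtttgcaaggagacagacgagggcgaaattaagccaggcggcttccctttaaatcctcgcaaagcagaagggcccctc
CD63: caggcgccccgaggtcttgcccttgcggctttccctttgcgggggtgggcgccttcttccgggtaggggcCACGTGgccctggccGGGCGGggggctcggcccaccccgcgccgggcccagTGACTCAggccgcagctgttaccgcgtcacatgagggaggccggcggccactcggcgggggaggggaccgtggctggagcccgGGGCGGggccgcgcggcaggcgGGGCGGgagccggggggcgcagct
CD82: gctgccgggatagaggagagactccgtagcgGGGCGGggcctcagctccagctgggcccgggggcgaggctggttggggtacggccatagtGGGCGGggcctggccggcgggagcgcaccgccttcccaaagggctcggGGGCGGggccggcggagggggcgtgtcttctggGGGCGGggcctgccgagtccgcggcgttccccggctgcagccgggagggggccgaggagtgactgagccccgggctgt
TSPAN4: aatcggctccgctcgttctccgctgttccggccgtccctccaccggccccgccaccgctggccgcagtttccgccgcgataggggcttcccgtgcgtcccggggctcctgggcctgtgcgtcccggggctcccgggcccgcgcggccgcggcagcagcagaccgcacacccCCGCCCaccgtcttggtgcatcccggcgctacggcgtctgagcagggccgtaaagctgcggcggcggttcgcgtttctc

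The motifs were the GC box GGGCGG, the CCAAT box CCAAT, the TATA box TATAAA, the full cAMP response element TGACGTCA, the AP-1 site TGANTCA and the E-box CACGTG, each read on both strands over the whole window of 300 bases. The CD9 window held 55.3% GC, 12 CpG dinucleotides and 1 motif, a CCAAT box at -107 from the start site. A CCAAT box was in 35.7% of all 27305 promoter windows. The CD63 window held 78.3% GC, 36 CpG dinucleotides, 3 GC boxes, 1 AP-1 site and 1 E-box.

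CD82 had 4 GC boxes in a window of 76.7% GC, and TSPAN4 had 2, of which 1 lies after the start site, in a window of 75.3% GC. Over all windows the median was 58.3% GC with 14 CpG dinucleotides, a GC box was in 44.6%, an AP-1 site in 7.76% and an E-box in 7.43%. None of the 7 windows matched the full cAMP response element, which was in 1.98% of all windows. CD9 was thus closer to the median window than CD63, CD82 or TSPAN4 in both base composition and CpG number. Measured along each gene, the start site used lies at -370 bases from the gene start in the count files for CD9, and at 664, 72 and 28 bases from it for CD63, CD82 and TSPAN4. The bases shown for CD63 thus lie within the gene as counted.

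Total counts lay between 6890868 and 9311026 in the knockdown libraries and were 4935096 and 8670141 in the controls. Levels are in CPM, counts scaled to library size with TMM factors, and 3 counts, the limit taken for a count of 0, stand for 0.322 to 0.435 CPM in the knockdown libraries and 0.608 and 0.346 CPM in controls 1 and 2. The targeted gene AKAP12, a scaffold for protein kinases A and C, had 1159, 1063 and 1008 CPM in the knockdown libraries and 2870 and 1550 CPM in the controls, and its log2 fold change was -1.04 (SE 0.31, adjusted p = 0.0513 by edgeR). This was -0.52 without control 1 and -1.42 without control 2. The controls stood apart from each other, with a median absolute difference of 0.64 log2 units over the 14536 tested genes. By chi-square over its degrees of freedom, which also depends on depth, control 2 was nearer to each knockdown library (68.8 to 90.3) than to control 1 (103.9). Fits that leave out a control are given wherever they moved a fold by more than 1.5 times. Such fits take the spread from the knockdown libraries alone and assume that the single control varies like them. When any 1 knockdown library was left out instead, edgeR called 0 genes past the threshold, with 3774 to 4109 genes at an unadjusted p under 0.05. The epithelial keratins KRT8, KRT18 and KRT19 were present in all libraries. KRT8, whose counts overlap KRT18, was higher in the knockdown (log2 fold change 1.78, adjusted p = 0.0195 by edgeR). KRT18 (0.15) and KRT19 (-0.07) had overlapping groups. Among 8 colon epithelial markers, KRT8 was the 1 called of 7 tested (14.3%, beside 22.6% of all genes), with 3 positive and 4 negative fold changes. KRT20 was at 0 in 4 of 5 libraries, CDH1 at 1.23 to 7.59 CPM and VIL1 at 0.717 to 3.43 CPM. Summed blood cell markers (11 genes) were 94.2 to 120.5 CPM in the knockdown libraries and 83.3 and 128.7 CPM in the controls, and fibroblast and endothelial markers (9 genes) 401 to 458 CPM and 327 and 431 CPM.

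**Figure D1:**
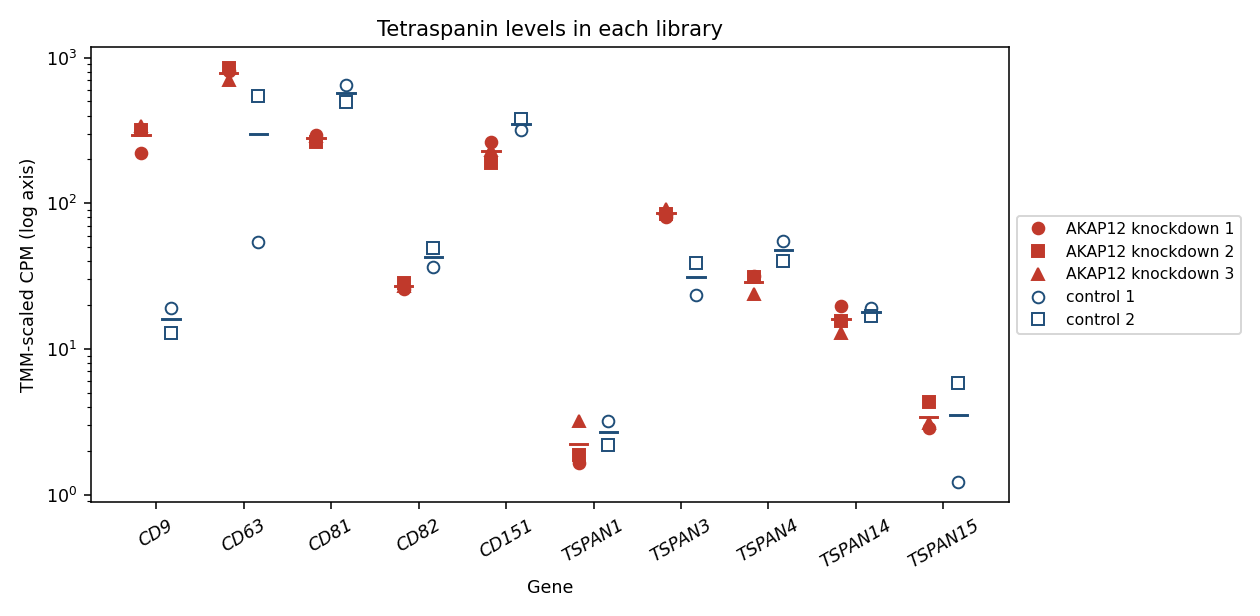
TMM-scaled CPM (log axis) of each of the 10 tetraspanins in the 3 AKAP12 knockdown and 2 control libraries, 1 point per library and a line at each group mean. CD9 separates the groups most widely, at 222 to 340 CPM in the knockdown against 19.1 and 12.8 CPM in the controls, while control 1 of CD63 stands apart at 54.4 CPM.

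CD9 is the tetraspanin that gave rise to the question and partners integrin β1, EWI proteins and the membrane form of HB-EGF. It lies on the plus strand of chromosome 12 from 6200316 to 6238271 (hg38). It had 2173, 2395 and 2763 reads in the knockdown libraries, against 78 and 112 reads in the controls. After scaling this was 222, 321 and 340 CPM in the knockdown and 19.1 and 12.8 CPM in the controls. Every knockdown library was far above both controls. Control 1 was 1.49 times control 2, and 54.9% of tested genes had as large a difference between the controls. The mean of 294 ± 62.9 CPM (SD, n = 3) in the knockdown gave an 18.6-fold higher fitted level, a log2 fold change of 4.22 (SE 0.34). Leaving out control 1 gave 4.52 and leaving out control 2 gave 3.94. CD9 ranked 38 of 14536 tested genes from the highest fold change, and 7 of the 7633 whose mean log2 CPM reached 4.

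Seen within a library, CD9 took a different place among its relatives. It made up 11.2% (exact 95% interval 10.7 to 11.6%), 15.9% (15.3 to 16.5%) and 17.3% (16.7 to 17.9%) of all tetraspanin reads in the knockdown libraries. In the controls it made up 1.27% (1.01 to 1.59%) and 0.696% (0.573 to 0.837%), and these intervals cover counting error only. The knockdown libraries had 0.756, 1.221 and 1.17 reads of CD9 for each read of CD81, against 0.0297 and 0.0257 in the controls. These are ratios of reads within 1 library, in which the scaling of the library cancels, and they kept the groups apart. CD81 was itself lower in the knockdown, which adds to this gap. Against CD63 the ratio was 0.275, 0.378 and 0.487 in the knockdown and 0.351 and 0.0237 in the controls, so here control 1 lay inside the knockdown range.

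CD63, the lysosomal and vesicle tetraspanin, lies on the minus strand of chromosome 12 from 55725443 to 55729673. It had 808, 848 and 697 CPM in the knockdown libraries, against 54.4 and 542 CPM in the controls. The 3 knockdown libraries were above both controls, but control 2 was 9.97 times control 1. The log2 fold change of 1.39 (SE 0.81) therefore depended on the control used, at 0.54 without control 1 and 3.85 without control 2. A difference between the controls as large as that of CD63 was seen in 1.27% of tested genes.

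CD81, which also serves as a hepatitis C virus receptor, lies on the plus strand of chromosome 11 from 2376177 to 2397419. It had 294, 263 and 290.2 CPM in the knockdown libraries, against 644 and 499 CPM in the controls. CD81 was thus below both controls in every knockdown library, the opposite of CD9. Its mean of 282 ± 17.1 CPM (SD, n = 3) in the knockdown gave a 2.02-fold lower fitted level, a log2 fold change of -1.02 (SE 0.21). The value was -0.82 without control 1 and -1.19 without control 2. CD81 overlaps its antisense gene CD81-AS1, which had at most 1 read in any library.

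Among the 3 vesicle markers, the order by reads differed between the libraries. CD63 made up 40.6%, 42.1% and 35.5% of tetraspanin reads in the knockdown libraries and 3.62% and 29.4% in the controls. CD81 made up 14.8%, 13.0% and 14.8% in the knockdown and 42.9% and 27.1% in the controls. CD9 had the fewest reads of the 3 in both controls, and passed CD81 in knockdown libraries 2 and 3. Shares of reads follow how each 3' end was captured and are not levels per transcript.

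**Figure D2:**
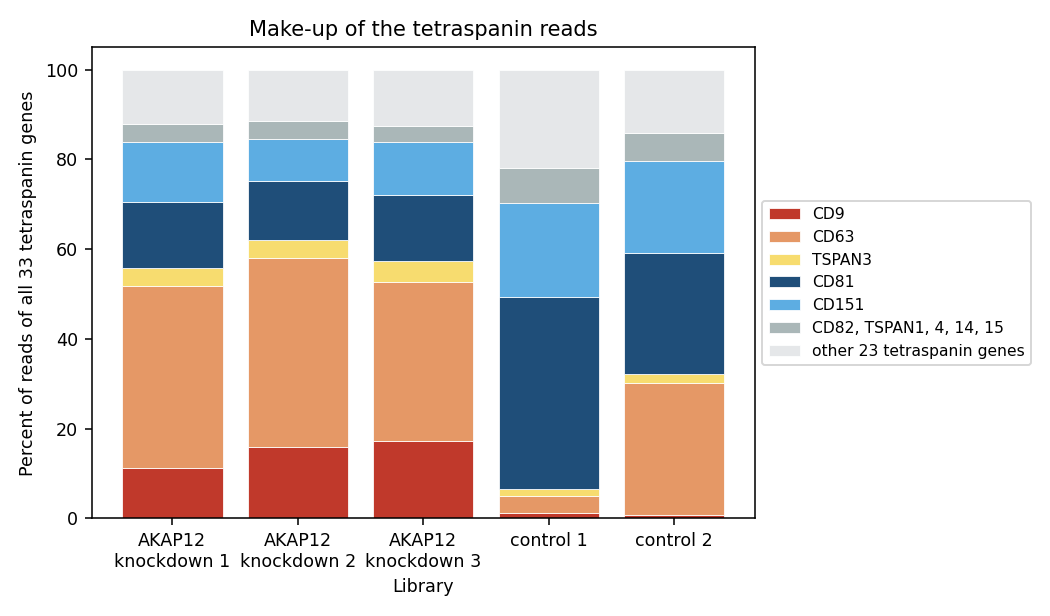
Share of all tetraspanin reads (percent) taken by each gene in the 3 AKAP12 knockdown and 2 control libraries. CD9 takes 11.2 to 17.3% in the knockdown against 1.27 and 0.696% in the controls, and CD63 takes 3.62% in control 1 against 29.4% in control 2.

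CD151, which binds the laminin-receptor integrins α3β1 and α6β4, lies on the plus strand of chromosome 11 from 832952 to 838835. It had 263, 189 and 232 CPM in the knockdown libraries, against 316 and 379 CPM in the controls. The groups did not overlap, with the knockdown lower, and the log2 fold change was -0.61 (SE 0.22). CD82, also called KAI1, lies on the plus strand of chromosome 11 from 44565591 to 44619765. It had 25.7, 28.4 and 26.9 CPM in the knockdown libraries, against 36.7 and 49.1 CPM in the controls. Its groups did not overlap either, and the log2 fold change was -0.67 (SE 0.22).

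TSPAN4, which is known from migrasomes, the vesicles left on the trails of moving cells, lies on the plus strand of chromosome 11 from 842824 to 867116. It had 31.7, 30.9 and 23.7 CPM in the knockdown libraries, against 54.9 and 40.0 CPM in the controls. The knockdown libraries were again all below both controls, with a log2 fold change of -0.72 (SE 0.24). TSPAN4 starts 9.87 kb from CD151, and CD81 starts 74.2 kb from TSPAN32. All 4 listed genes that were lower without overlap, as were 28.5% of all tested genes, are on chromosome 11. There edgeR called 12.8% of the 844 tested genes lower and 11% higher, with a median log2 fold change of 0.04. TSPAN18, also on chromosome 11 and starting 199 kb from CD82, was above both controls in every knockdown library (log2 fold change 1.15). TSPAN32 (-0.59) and ROM1 (0.41), on the same chromosome, had overlapping groups.

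TSPAN3, reported to bind integrins and claudin-11 in oligodendrocytes and to be expressed widely, lies on the minus strand of chromosome 15 from 77044018 to 77071228. It had 79.9, 84.2 and 91.6 CPM in the knockdown libraries, against 23.5 and 39.0 CPM in the controls. The knockdown libraries were all above both controls and close to each other, at a mean of 85.2 ± 5.93 CPM (SD, n = 3). The fitted level was 2.71-fold higher, a log2 fold change of 1.44 (SE 0.27), with 1.13 without control 1 and 1.85 without control 2. For each read of CD81 there were 0.272, 0.321 and 0.316 reads of TSPAN3 in the knockdown and 0.0365 and 0.0781 in the controls. CD9 outnumbered TSPAN3 by 2.79, 3.81 and 3.71 reads to 1 in the knockdown, whereas the ratio was 0.812 and 0.329 in the controls.

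TSPAN14 and TSPAN15 belong to the TspanC8 subgroup, which carries the protease ADAM10 out of the endoplasmic reticulum and steers which proteins it cuts. TSPAN14 had 19.6, 15.5 and 12.9 CPM in the knockdown libraries, against 19.1 and 16.7 CPM in the controls. Its log2 fold change of -0.16 (SE 0.27) turned to 0.055 when libraries were scaled by total count alone, a scaling that moved the median of all genes by 0.20. TSPAN15 had 2.87, 4.29 and 3.07 CPM in the knockdown libraries, against 1.225 and 5.85 CPM in the controls. The controls lay on either side of the knockdown, so the log2 fold change of -0.15 (SE 0.61) was -0.79 without control 1 and 1.45 without control 2. Control 1 had 5 reads of TSPAN15. TSPAN1, a tetraspanin of secretory epithelia, had 1.64, 1.88 and 3.20 CPM in the knockdown libraries, against 3.18 and 2.18 CPM in the controls. It rested on 13 to 26 reads per library, its groups overlapped, and its log2 fold change was -0.23 (SE 0.51), or 0.030 without control 1.

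Over the list, 2 genes (CD9 and TSPAN3) were past the adjusted threshold of 0.05 upward and 1 (CD81) downward, beside a background of 11.2% of all tested genes upward and 11.4% downward, 22.6% in either direction. In 3 genes (CD9, CD63 and TSPAN3) every knockdown library was above both controls, and in 4 (CD81, CD82, CD151 and TSPAN4) every one was below, beside 31.6% and 28.5% of all tested genes, 60.1% without overlap in either direction. The 10 genes entered the same fit as all others, but these calls and counts do not test them. Nothing is read from these counts, since the list was made with the comparison known. The listed genes had a median log2 fold change of -0.19, with 3 positive and 7 negative values, and all tested genes had a median of 0.04. The summed level of the 10 genes was 1749, 1786 and 1721 CPM in the knockdown libraries and 1172 and 1586 CPM in the controls. Without CD9 the sum was 1527, 1465 and 1381 CPM in the knockdown and 1153 and 1573 CPM in the controls, so that control 2 was then the highest library and control 1 the lowest. CD9 thus had the largest fold change of the listed genes with all libraries, and without control 2 CD63 came near it (3.85 beside 3.94). TSPAN3 was higher by less, and CD81, CD82, CD151 and TSPAN4 were lower.

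**Figure D3:**
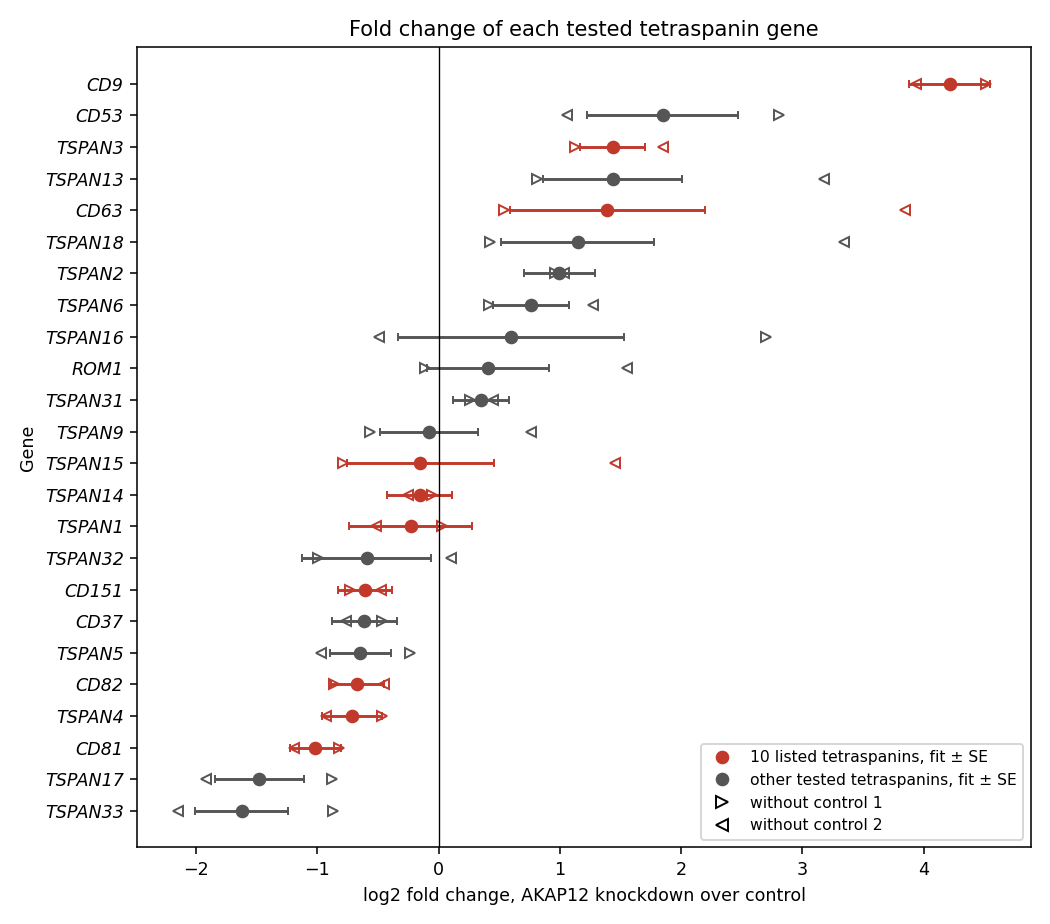
Log2 fold change (AKAP12 knockdown over control) of the 24 tested tetraspanins with its SE, and triangles for the fits without control 1 or control 2. CD9 stands at 4.22, and the triangles of CD63 lie at 0.54 and 3.85.

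Of the other 23 tetraspanins, 14 passed the filter. The edgeR test found 0 that rose and 2 that fell, which is 14.3% of those tested beside 22.6% over all genes. At an unadjusted p under 0.05 there were 4 higher and 3 lower, beside 40.5% of all tested genes at that level. DESeq2 called 2 higher (CD53 at an adjusted p of 0.0448 and TSPAN2 at 0.0404) and 2 lower, in a fit that called 30.6% of all genes. With limma-voom, 0 were called higher and 2 lower, in a fit that called 21.1% of all genes. Their median log2 fold change was 0.38, with 8 positive and 6 negative values. Without control 1 the counts were 2 higher and 3 lower, in a fit that called 37.3% of all genes. Without control 2 they were 6 higher and 4 lower, in a fit that called 58.1% of all genes.

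The 2 that fell are both TspanC8 members. TSPAN33, first described in blood cell precursors and activated B cells, had 8.09, 8.97 and 7.99 CPM in the knockdown libraries, against 37.0 and 15.3 CPM in the controls. Its log2 fold change was -1.63 (SE 0.38, adjusted p = 0.0307 by edgeR), with -0.87 without control 1. TSPAN17 had 18.9, 27.2 and 15.7 CPM in the knockdown libraries, against 77.7 and 38.0 CPM in the controls, and fell by 1.48 on the log2 scale (SE 0.37, adjusted p = 0.0346 by edgeR). It fell by 0.88 without control 1, and the call was lost when libraries were scaled by total count alone (adjusted p = 0.0537). In both genes control 1 was the highest library. The highest knockdown library was 1.12 times the lowest for TSPAN33 and 1.73 times for TSPAN17.

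TSPAN5, another TspanC8 member, had 72.7, 63.6 and 70.6 CPM in the knockdown libraries, against 135 and 81.4 CPM in the controls. It was below both controls without passing the threshold (log2 fold change -0.65, SE 0.25, adjusted p = 0.104 by edgeR), and was -0.24 without control 1. The protease that TspanC8 members escort, ADAM10, had 30.3 ± 5.84 CPM (SD, n = 3) in the knockdown and 27.4 and 19.4 CPM in the controls, with a log2 fold change of 0.38 (SE 0.27, adjusted p = 0.331 by edgeR).

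Other tetraspanins were higher in every knockdown library without passing the threshold. TSPAN2, best known from oligodendrocytes, had 11.8, 10.2 and 14.3 CPM in the knockdown libraries, against 5.88 and 6.19 CPM in the controls. Its log2 fold change of 0.99 (SE 0.29, adjusted p = 0.0516 by edgeR) lay just outside the threshold and was 0.96 without control 1 and 1.03 without control 2. TSPAN6, reported to act in endosomal sorting, had a log2 fold change of 0.76 (SE 0.32, adjusted p = 0.120 by edgeR), and 1.27 without control 2. TSPAN13 had 7.99, 8.44 and 10.8 CPM in the knockdown libraries, against 0.980 and 5.16 CPM in the controls. In TSPAN13, as in CD63, control 1 was far below control 2, but control 1 had only 4 reads of TSPAN13, against 222 of CD63. The log2 fold change of TSPAN13 was 1.43 (SE 0.57, adjusted p = 0.110 by edgeR), or 0.81 without control 1 and 3.18 without control 2. TSPAN18 had the same pattern of controls, with 6 reads in control 1 and 98 in control 2. Its log2 fold change was 1.15 (SE 0.63, adjusted p = 0.219 by edgeR), and 0.43 and 3.34 without controls 1 and 2.

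TSPAN18 overlaps TP53I11, and reads over both are counted for each. TSPAN31 overlaps CDK4 and had a log2 fold change of 0.35 (SE 0.23, adjusted p = 0.292 by edgeR). CD53, a leukocyte tetraspanin, had 4.402, 4.82 and 3.07 CPM in the knockdown libraries, against 1.96 and 0.573 CPM in the controls. Its log2 fold change was 1.85 (SE 0.62, adjusted p = 0.0724 by edgeR), or 2.81 without control 1 and 1.05 without control 2. It rested on 8 and 5 reads in the controls. CD37, also a leukocyte tetraspanin, went the other way at -0.61 (SE 0.27, adjusted p = 0.133 by edgeR), and overlaps TEAD2. The part of blood cell RNA in CD37 and CD53 was not tested, and the leukocyte gene PTPRC was at 34.8 to 46.9 CPM in the knockdown libraries and 28.9 and 43.6 CPM in the controls. Of the 11 blood cell markers 8 were tested, with 5 positive and 3 negative fold changes, and 0 were called higher. The 2 called lower (25%, beside 22.6% of all genes) were CD3D (log2 fold change -1.82, adjusted p = 0.0463 by edgeR) and CD68 (-0.96, adjusted p = 0.0377). CD3D had 5 to 27 reads per library.

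For 4 further genes the sign depended on the fit. TSPAN9 was at -0.08 (SE 0.40, adjusted p = 0.898 by edgeR), and was 0.072 with scaling by total count alone, 0.76 without control 2 and 0.08 without knockdown library 2. TSPAN16, with 9 and 2 reads in controls 1 and 2, was at 0.60 (SE 0.93), 2.701 without control 1 and -0.49 without control 2. TSPAN32 was at -0.59 (SE 0.53), and 0.10 without control 2. ROM1, a photoreceptor tetraspanin that overlaps EML3, was at 0.41 (SE 0.51), -0.11 without control 1 and 1.55 without control 2. Control 1 had 7 reads of ROM1. The other 9 tetraspanins (TSPAN7, TSPAN8, TSPAN10, TSPAN11, TSPAN12, TSPAN19, UPK1A, UPK1B and PRPH2) did not pass the filter, with at most 16 reads in any library, and TSPAN19 had 0 in all 5. These genes were not tested, and TSPAN11, with 1, 2 and 0 reads in the knockdown libraries and 7 and 5 in the controls, was the one whose groups did not overlap.

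**Figure D4:**
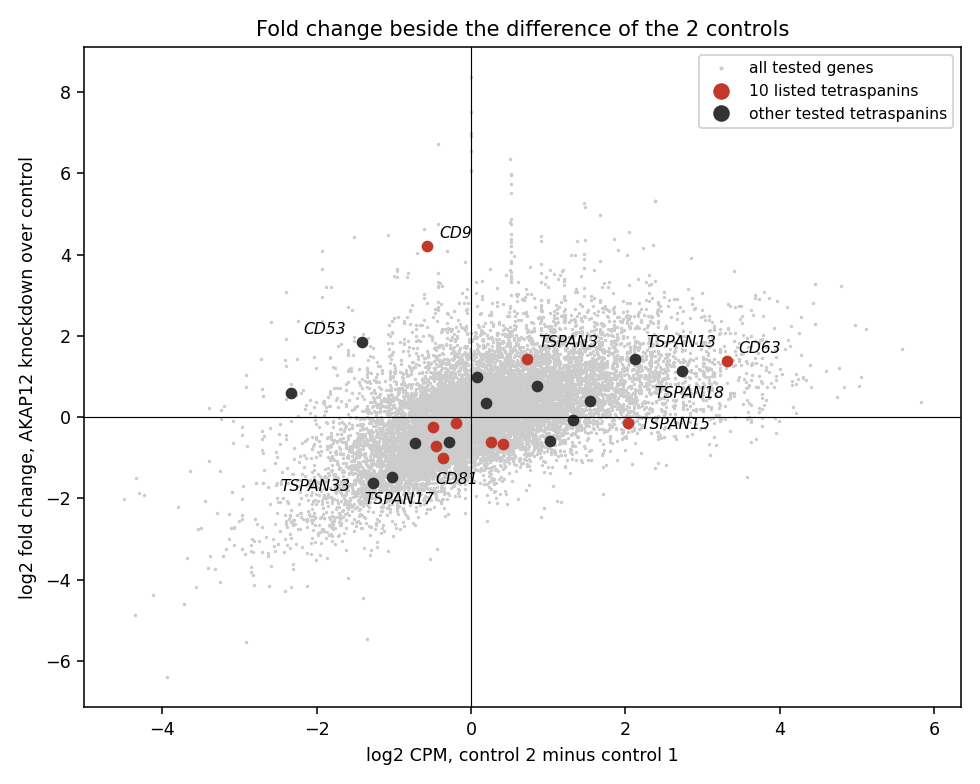
Log2 fold change (AKAP12 knockdown over control) of each tested gene on the vertical axis beside the log2 CPM difference of control 2 minus control 1 on the horizontal axis, with tetraspanins as large points. Both axes use the controls; CD9 has a control difference of -0.56 and CD63 one of 3.31.

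Tetraspanins act with partners, so the genes of 6 lists were counted in the same fit. Over all tested genes 11.2% rose and 11.4% fell, 22.6% in all, with a median of 0.04, and the share of each list is given beside this. Of 18 genes of proteins that associate with tetraspanins, 1 rose and 5 fell (33.3%, beside 22.6% of all genes, median log2 fold change -0.30). CTNNB1, the gene of β-catenin, which links cadherins to actin and acts in Wnt signalling, rose to 414 ± 11.9 CPM (SD, n = 3) in the knockdown against 41.4 and 142 CPM in the controls, a log2 fold change of 2.16 (SE 0.50, adjusted p = 0.0290 by edgeR), or 1.54 and 3.32 without controls 1 and 2. ITGA3, the integrin subunit that CD151 binds most tightly, fell to 38.2 ± 2.26 CPM (SD, n = 3) in the knockdown against 127 and 101 CPM in the controls, a log2 fold change of -1.58 (SE 0.20, adjusted p = 0.0131 by edgeR). HBEGF, whose membrane form CD9 binds, fell to 6.66 ± 0.913 CPM (SD, n = 3) in the knockdown against 28.4 and 16.1 CPM in the controls (log2 fold change -1.73, SE 0.32, adjusted p = 0.0208 by edgeR). IFITM3, an antiviral protein of endosomal membranes, fell with a log2 fold change of -1.29 (SE 0.21, adjusted p = 0.0167 by edgeR). IFITM1 and MMP14 were the other genes that fell.

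The ADAM10 and ADAM17 list, with proteins they cut, held 16 tested genes, of which 1 rose and 1 fell (12.5%, beside 22.6% of all genes, median -0.11). NOTCH1, a receptor cut by ADAM10, rose to 28.7 ± 5.97 CPM (SD, n = 3) in the knockdown against 4.41 and 9.40 CPM in the controls, a log2 fold change of 2.00 (SE 0.38, adjusted p = 0.0213 by edgeR), or 2.69 without control 2. TNFRSF1B, a TNF receptor, fell with a log2 fold change of -0.90 (SE 0.21, adjusted p = 0.0292 by edgeR), and its counts overlap MIR7846. The call was lost when libraries were scaled by total count alone (-0.71, adjusted p = 0.0775 by edgeR).

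Of 24 tested genes of vesicle release, 2 rose and 4 fell, a share of 25% near the 22.6% of all genes (median -0.14). SDCBP, the gene of syntenin, which binds the tail of CD63, had 60.3, 47.8 and 49.8 CPM in the knockdown libraries, against 18.6 and 16.7 CPM in the controls. It rose with a log2 fold change of 1.58 (SE 0.23, adjusted p = 0.0146 by edgeR), and so did its partner PDCD6IP, the gene of ALIX, at 1.07 (SE 0.21, adjusted p = 0.0217 by edgeR). FLOT2 (log2 fold change -1.20), VPS37B (-1.45) and VPS4A (-0.87) fell with edgeR adjusted p values of 0.0213, 0.0244 and 0.0239.

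Of 14 palmitoyltransferase and adaptor genes, 4 rose and 3 fell (50%, beside 22.6% of all genes, median -0.04). ZDHHC2, an enzyme that palmitoylates CD9 and CD151, rose to 23.4 ± 1.86 CPM (SD, n = 3) in the knockdown against 7.84 and 5.62 CPM in the controls, a log2 fold change of 1.82 (SE 0.27, adjusted p = 0.0153 by edgeR). The adaptor complex AP-3 recognises the lysosomal sorting signal of CD63, and its subunit genes AP3M1 and AP3S1 rose with log2 fold changes of 1.98 and 2.13 (SE 0.31 and 0.49, adjusted p = 0.0161 by edgeR and 0.0285). AP3S1 was at 1.54 and 3.39 without controls 1 and 2. The other AP-3 genes of the list did not pass, with AP3S2 at -0.56, AP3B1 at -0.17 and AP3D1 at -0.14. The AP-2 complex takes up surface proteins, and its genes AP2S1 (-2.75, SE 0.47), AP2A1 (-0.95, SE 0.28) and AP2M1 (-0.65, SE 0.18) fell, with edgeR adjusted p values of 0.0181, 0.04999 and 0.0452. AP2S1 was at -1.59 without control 1 and -3.39 without control 2, and AP2A1 overlaps FUZ. With scaling by total count alone the calls of AP2M1 (adjusted p = 0.113 by edgeR) and AP2A1 (0.0868) were lost, as they were with no filter (0.0853 and 0.0564), and AP2A1 also with limma-voom (0.0579). AP2B1 was at -0.08 and did not pass.

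Of 13 membrane protein genes of late endosomes and lysosomes, the compartment of CD63, 6 rose and 0 fell (46.2%, beside 22.6% of all genes, median 0.72). By edgeR 1 of them was lower at an unadjusted p under 0.05, and DESeq2 and limma-voom also called 0 lower. TMEM59, a regulator of glycoprotein transport and autophagy whose counts overlap TCEANC2, rose with a log2 fold change of 2.71 (SE 0.40, adjusted p = 0.0149 by edgeR), or 3.45 without control 2. LAPTM4B rose by 1.41 (SE 0.27, adjusted p = 0.0217 by edgeR) and CD164, a sialomucin, by 1.11 (SE 0.23, adjusted p = 0.0233 by edgeR) on the log2 scale. Of 21 tested genes of other families with 4 membrane spans, 2 rose and 2 fell (19%, beside 22.6% of all genes, median 0.37). CLDN12 (1.64, SE 0.39, adjusted p = 0.0307 by edgeR, or 2.40 without control 2) and EMP1 (0.78, SE 0.21, adjusted p = 0.0388 by edgeR) rose, and MARVELD1 (-1.71, SE 0.30, adjusted p = 0.0191 by edgeR) and CMTM6 (-1.46, SE 0.26, adjusted p = 0.0188 by edgeR) fell.

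Without 1 control the counts of these lists moved, as did the total over all genes, which was 3282 with every library, 5658 without control 1 and 8811 without control 2 (22.6%, 37.3% and 58.1% of tested genes). Without control 1 the genes higher and lower numbered 4 and 7 for tetraspanin partners, 4 and 2 for the ADAM list, 4 and 6 for vesicle release, 6 and 4 for palmitoylation and adaptors, 8 and 0 for late endosomes, and 5 and 3 for other 4-span families. Without control 2 they numbered 3 and 8, 3 and 6, 6 and 9, 4 and 4, 8 and 2, and 13 and 4 in the same order.

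**Figure D5:**
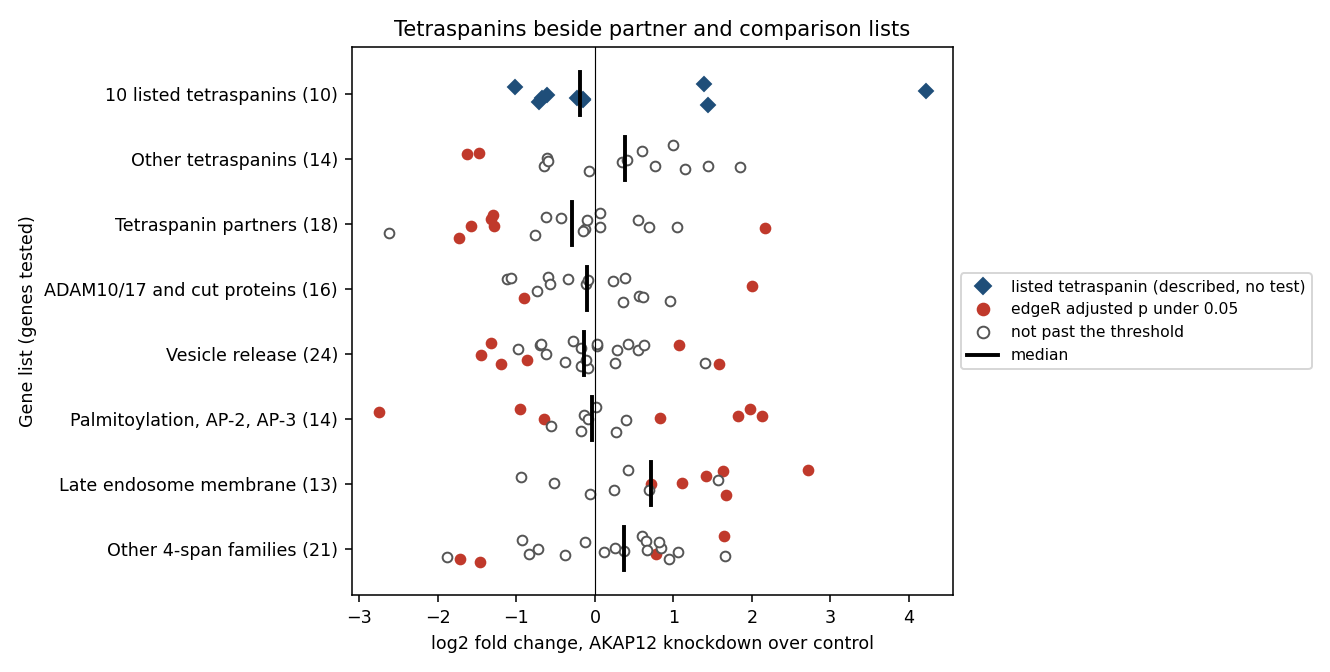
Log2 fold change (AKAP12 knockdown over control) of each tested gene in the tetraspanin and partner lists, with filled circles for an edgeR adjusted p under 0.05, diamonds for the 10 tetraspanins that carry no test, and a bar at each median. The median is -0.19 for the 10 listed tetraspanins and 0.72 for late endosome membrane genes.

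The 5 genes whose levels over the 5 libraries were most like those of CD9 were not tetraspanins, which are few among the genes compared. This is a description, and it does not bear on whether the family shares the higher level of CD9. Likeness was the root-mean-square difference of centred log2 CPM, over the 7632 other genes whose mean log2 CPM reached 4. The nearest was GDF9 (0.30), whose exons overlap UQCRQ, followed by SEC61G (0.51), NDUFB3 (0.53), RPS15A (0.59) and MRPL34 (0.61). Among the listed tetraspanins TSPAN3 came nearest, at rank 511 (1.39), then CD63 at rank 1022 (1.59), and CD81 was at rank 6796 (2.56).

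VWF, on the minus strand of chromosome 12 and the gene of von Willebrand factor, was the 1 other gene with a start within 100 kb of that of CD9, at 75.6 kb. It had 16.5, 12.5 and 13.6 CPM in the knockdown libraries, against 21.1 and 20.6 CPM in the controls. VWF was thus below both controls, the other way from CD9, without passing the threshold (log2 fold change -0.55, SE 0.24, adjusted p = 0.128 by edgeR). The next 3 tested genes, chosen after their values were seen, start 141.8 to 177.0 kb away. TNFRSF1A had a log2 fold change of -0.10 (adjusted p = 0.785 by edgeR), LTBR, which overlaps SCNN1A, of 0.27 (0.530) and SCNN1A of -0.84 (0.0807). None of the 4 passed the threshold, and none had a fold change near that of CD9.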

How the data were processed

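Poly(A)-primed 3' end libraries of SW480 cells were compared, 3 of AKAP12 knockdown and 2 of control. The deposited count is a whole number of reads over the exons of each gene, made by the authors with featureCounts 1.6.2 per the file headers, where a read over several genes adds to every one and no strand setting is given, so reads of overlapping and antisense genes cannot be told apart. The submitters' processing notes name STAR 2.7 and hg38. The use of molecular identifiers is not given in the sources used here. The authors' deposited table, per its header, holds a mean signal, a log2 fold change with its SE, a test statistic (a score) and p-values, and DESeq2 1.22 is named in the notes. Its direction is not stated, and was read from its correlation with the fold changes fitted here (Pearson r = 0.999 across 14536 genes, which are not independent). In the authors' deposited table CD9 had 4.20, and the 10 tetraspanins differed from the fit by at most 0.0434 log2 units.

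Genes were filtered with filterByExpr (minimum count 10), scaled with TMM factors and tested with edgeR 4.0.16 in R 4.3.3 (quasi-likelihood, two-sided), with no covariates and Benjamini-Hochberg adjustment over all 14536 tested genes at 0.05. SE is the absolute log2 fold change over the square root of F. Log2 CPM used a prior count of 2. An exact permutation test of 3 libraries against 2 cannot go below p = 0.1. No library was a duplicate, since chi-square over its degrees of freedom was 5.30 to 8.67 for knockdown pairs and 103.9 for the controls. It was 68.8 to 90.3 between control 2 and the knockdown libraries, and 179.9 to 215.4 between control 1 and the knockdown libraries. Exact (Clopper-Pearson) 95% intervals and the limit of 3 counts cover counting error only. The procedure was tested on simulated counts in which every library had a low spread, like that between the knockdown libraries. The controls here stood further apart than that, so the simulation does not show how the calls hold in these data.

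The 10 tetraspanins and all lists were chosen with earlier results of these data known. Starts are taken on the strand of each gene. Named genes were the 10, AKAP12, every tested tetraspanin, in each list up to 3 genes past the threshold in each direction with the smallest p, SDCBP, ADAM10, tested genes starting within 100 kb of CD9, and the 5 genes most like CD9. IFITM1, MMP14, PTPRC, CD3D, CD68, KRT8, KRT18, KRT19, KRT20, CDH1, VIL1, AP2B1, AP3S2, AP3B1, AP3D1, TSPAN11 and the promoters shown were picked with their values in view. The settings varied were the tool (DESeq2 1.42.0, or limma-voom with limma 3.58.1), the scaling (RLE, or library size only), the filter (none, or 5 CPM in 2 libraries), counts without TERT and short RNA genes, the replicate number as a block, and each library left out. Equal replicate numbers in both groups share only a number, so the main comparison has no block.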

Additional observations from a re-analysis of the deposited data

How the results depend on the processing

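CD9 kept its direction in every fit, at 4.10 to 4.45 with all libraries and 3.94 to 4.52 with 1 library left out. With 1 library left out, the others ranged as follows on the log2 scale, and the cause was not tested: CD63 0.54 to 3.85, CD81 -1.19 to -0.82, CD82 -0.86 to -0.45, CD151 -0.73 to -0.48, TSPAN1 -0.58 to 0.030, TSPAN3 1.13 to 1.85, TSPAN4 -0.93 to -0.47, TSPAN14 -0.33 to -0.02, TSPAN15 -0.79 to 1.45 and AKAP12 -1.42 to -0.52. TSPAN1 turned to 0.030 without control 1.

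Scaling by library size alone moved the median of all genes by 0.20, with CD81 at -0.79, CD82 at -0.48, TSPAN14 at 0.055 and TSPAN9 at 0.072. It called 2650 of all genes, 982 of them lower, against 3282 and 1658 with TMM factors. It called 1 other tetraspanin higher and 1 lower, in a fit that called 18.2% of all genes. A stricter filter called 1 higher and 2 lower (29% of all genes), and DESeq2 called 2 higher and 2 lower (30.6% of all genes). Over all genes DESeq2 called 4451 and limma-voom 3073. TSPAN1 and TSPAN15 gave no value under the stricter filter. AKAP12 passed the threshold with DESeq2 (-1.09, adjusted p = 0.0114), limma-voom (-0.98, 0.0453), no TERT and short RNA genes (-1.04, 0.0480), no filter (-0.996, 0.0310) and the stricter filter (-1.06, 0.0481).

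With 1 library left out, all genes gave 0 to 8811 calls (0 to 4625 higher and 0 to 4186 lower), the other tetraspanins 0 to 6 higher and 0 to 4 lower, and the partner lists 0 to 37 higher and 0 to 33 lower, from 16 and 15. The ranges of genes that reversed were -0.57 to 0.76 for TSPAN9, -0.49 to 2.701 for TSPAN16, -0.99 to 0.10 for TSPAN32 and -0.11 to 1.55 for ROM1.

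With the replicate number as a block, in which knockdown library 3 has no partner, 210 genes were called (185 higher and 25 lower), 0 other tetraspanins fell, and the partner lists had 1 higher and 0 lower. Deviations from the group means of same-numbered libraries correlated at -0.05 and -0.08, TSPAN15 turned to 0.25, and AKAP12 had an adjusted p of 0.298. With 2 controls, a gene of few reads or with unlike controls has no firm size of change here.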
